A study of Arabidopsis thaliana with 12 samples.

Results

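Aux/IAA, SAUR and GH3 genes are the 3 gene families first recognized by their fast transcriptional response to the hormone auxin. Their members were taken from the expression table of Arabidopsis roots by gene name (IAA, SAUR or GH3 followed by a number) or, for SAUR genes without a name, by a description as SAUR-like auxin-responsive proteins. The rule found 37 of the 20017 genes in the table, with 22 Aux/IAA, 9 SAUR and 6 GH3 genes. Measured relatives that the table lists under another name, such as SHY2 for IAA3, were not members and are given among the other observations.

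RNA from roots was sequenced in 12 libraries, 3 in each of 4 groups of seedlings grown for 7 days on agar plates. Both genotypes, wild-type Col-0 and crr, received 1 mM phosphate (+Pi) or a medium to which none was added (-Pi). The mutant carries a T-DNA insertion, crr-1, in the Col-0 background and is therefore 1 allele, and each library came from the pooled roots of many seedlings. CRR encodes a CYBDOM membrane protein that can reduce ferric iron, and the mutant was sequenced beside the wild type on both media, so that the effect of losing CRR can be compared with and without phosphate. Each group is represented by its mean log2 CPM as deposited by the authors, where CPM is the number of reads of a gene scaled to a common library size. The spread among the libraries of a group is not in these values, so the differences below carry no error and no test, and the values used here hold no read counts from which a counting error could be set. A difference was counted when it reached 2-fold, which is 1 on the log2 scale, and was read against the share of all 20017 genes that reached it.

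Auxin acts by removing repressors. Aux/IAA proteins bind auxin response factors (ARFs) together with TOPLESS co-repressors and keep auxin target genes off, and auxin joins an Aux/IAA protein to a TIR1/AFB receptor so that the repressor is degraded. The targets then turned on include the Aux/IAA genes themselves, GH3 genes, whose enzymes join auxin to amino acids and so store or inactivate it, and SAUR genes, whose small proteins inhibit PP2C-D phosphatases and thereby favour plasma membrane proton pumps and cell expansion. In roots this pathway sets meristem activity, cell elongation, lateral root formation and root hair growth, all of which respond to phosphate supply.

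The promoters of 6 members are shown because they belong to the largest differences described below (AT2G21210, IAA31), to GH3 genes with opposite differences (GH3.1, GH3.3) and to the members with the most matches to the core letters of auxin response elements (IAA19, IAA1). Each run holds 300 bases, from 250 before to the first 50 after the annotated start of the gene, from the RefSeq TAIR10.1 genome, in the direction of transcription. Capitals mark TGTCTC, the classic core, or TGTCGG, the core with higher affinity for ARFs, on either strand, so that GAGACA and CCGACA are matches read on the opposite strand.
AT2G21210 (chr2:9085980-9086279, minus strand): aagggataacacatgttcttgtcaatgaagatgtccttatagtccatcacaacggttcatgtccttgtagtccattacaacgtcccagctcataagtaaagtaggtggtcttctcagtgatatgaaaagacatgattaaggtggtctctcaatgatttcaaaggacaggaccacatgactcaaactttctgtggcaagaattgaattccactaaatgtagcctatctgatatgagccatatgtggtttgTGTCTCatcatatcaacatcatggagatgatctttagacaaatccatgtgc
IAA31 (chr3:6021098-6021397, minus strand): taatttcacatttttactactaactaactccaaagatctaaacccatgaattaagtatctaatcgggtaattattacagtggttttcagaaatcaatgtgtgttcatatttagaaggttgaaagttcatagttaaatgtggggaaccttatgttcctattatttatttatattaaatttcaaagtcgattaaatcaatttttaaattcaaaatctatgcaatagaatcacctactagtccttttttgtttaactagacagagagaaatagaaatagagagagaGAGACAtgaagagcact
GH3.1 (chr2:6453748-6454047, minus strand): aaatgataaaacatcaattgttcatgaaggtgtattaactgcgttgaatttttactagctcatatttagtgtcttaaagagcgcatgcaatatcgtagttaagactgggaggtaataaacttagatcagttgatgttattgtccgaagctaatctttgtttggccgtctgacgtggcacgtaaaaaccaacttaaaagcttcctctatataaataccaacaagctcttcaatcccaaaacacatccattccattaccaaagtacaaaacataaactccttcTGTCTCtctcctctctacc
GH3.3 (chr2:9866513-9866812, minus strand): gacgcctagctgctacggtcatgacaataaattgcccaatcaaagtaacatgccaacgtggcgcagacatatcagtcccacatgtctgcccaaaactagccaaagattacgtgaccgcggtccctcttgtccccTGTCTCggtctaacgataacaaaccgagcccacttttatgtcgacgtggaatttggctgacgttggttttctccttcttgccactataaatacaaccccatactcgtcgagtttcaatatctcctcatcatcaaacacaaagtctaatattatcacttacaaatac
IAA19 (chr3:5263751-5264050, plus strand): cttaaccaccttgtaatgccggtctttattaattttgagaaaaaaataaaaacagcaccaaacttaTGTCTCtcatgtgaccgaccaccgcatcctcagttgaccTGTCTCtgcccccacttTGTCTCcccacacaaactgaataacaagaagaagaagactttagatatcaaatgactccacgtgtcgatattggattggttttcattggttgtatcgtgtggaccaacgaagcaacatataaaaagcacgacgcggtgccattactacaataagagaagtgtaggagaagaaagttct
IAA1 (chr4:8360746-8361045, plus strand): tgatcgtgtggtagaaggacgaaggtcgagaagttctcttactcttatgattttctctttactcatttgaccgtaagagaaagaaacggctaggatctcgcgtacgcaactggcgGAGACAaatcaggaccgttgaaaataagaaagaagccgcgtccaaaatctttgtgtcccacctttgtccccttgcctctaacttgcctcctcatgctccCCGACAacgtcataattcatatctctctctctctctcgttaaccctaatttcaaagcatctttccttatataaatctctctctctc

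The single match of AT2G21210 begins at base -1 relative to its annotated start, and those of IAA31 and GH3.1 lie after the start, at 34 and 32. GH3.3 has a match at -116, IAA19 has 3 at -184, -145 and -128, and IAA1 has a TGTCTC at -135 and a TGTCGG at -36. Over both strands, TGTCTC was found in 11 of the 37 member promoters (29.7%) and in 13.6% of 19997 promoters of the table's genes. The 11 were those of IAA1, IAA8, IAA19, IAA20, IAA28, IAA30, IAA31, GH3.1, GH3.3, GH3.5 and AT2G21210. TGTCGG, which shares its first letters with TGTCTC but cannot match at the same base, was found in 5 member promoters (13.5%), those of IAA1, IAA12, IAA13, IAA16 and IAA27, against 5.59% of all. GNATATNC, the P1BS element bound by the phosphate starvation regulator PHR1, was found in 2 (5.41%), those of IAA17 and IAA27, against 6.31% of all. A match describes the letters of the window only.

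Aux/IAA repressors made up most of the expression of the set. Divided by transcript length, the highest level was that of IAA9 at 235 CPM per kb over the 4 group means, followed by IAA16 at 86.2, IAA17 at 78.6, the GH3 gene GH3.17 at 68.1, IAA8 at 53.1, IAA28 at 51.1 and SAUR32 at 45.8. The lowest was GH3.9 at 0.277 CPM per kb. On the log2 CPM scale, 32 of the 37 members reached 1 in at least 1 group, and IAA20, IAA30, IAA33, GH3.9 and AT5G20810 did not. No member was at the lowest value of the table, -5.09 log2 CPM, which 30 genes took in some group.

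**Figure D1:**
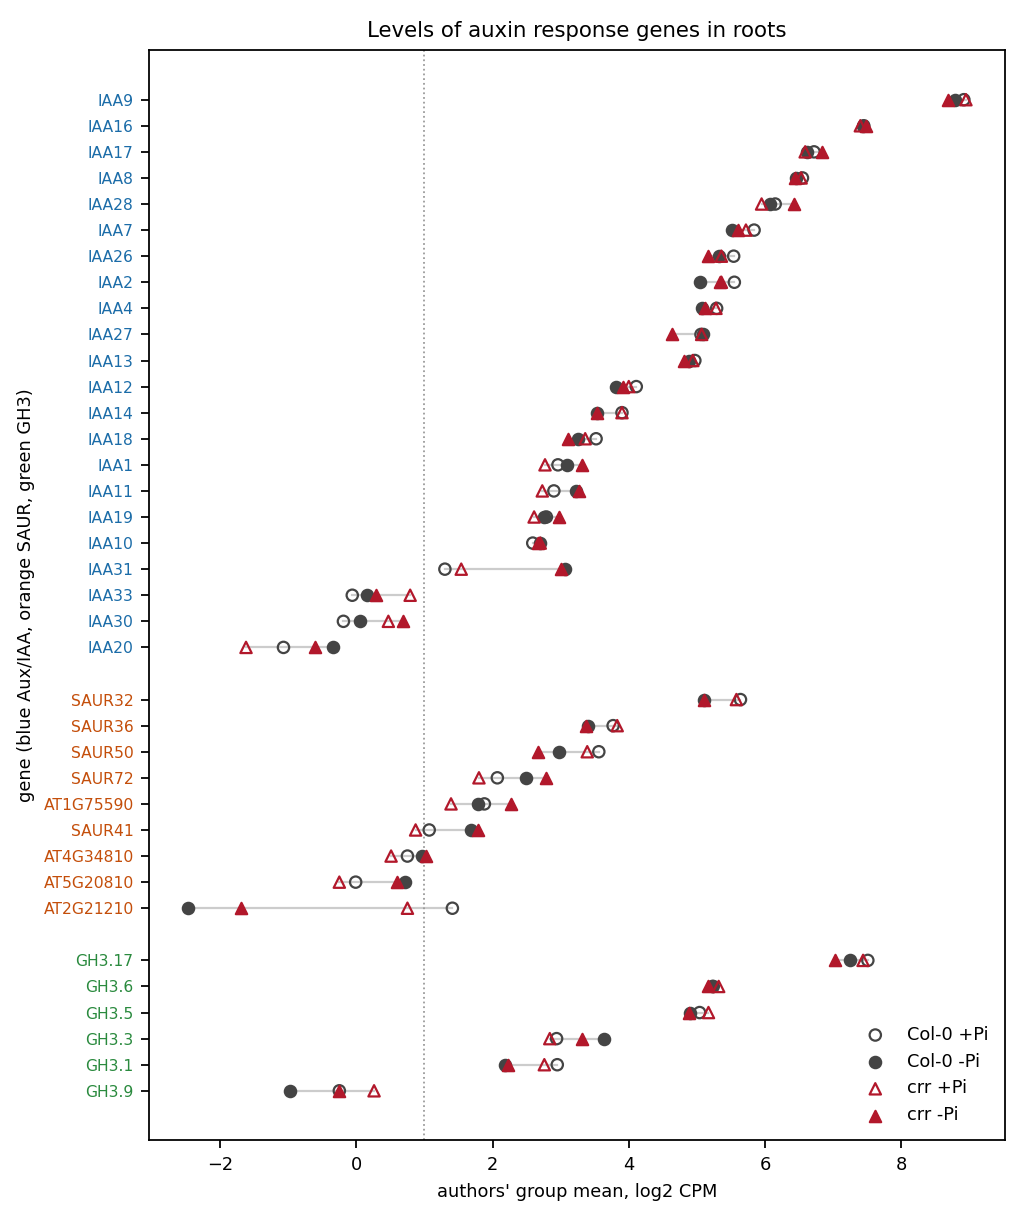
The authors' group mean of each of the 37 genes in log2 CPM, for Col-0 (circles) and crr (triangles) with phosphate (open) and without it (filled); grey lines join the lowest and highest group, and the dotted line marks 1 log2 CPM. Most genes kept their 4 groups close together, while IAA31 and AT2G21210 separated by phosphate supply.

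Between phosphate supplies, a few members stood far from 0 and most lay close to it. In Col-0, 1 member was at least 2-fold higher without phosphate, IAA31, beside 4.19% of all genes, and 1 was at least 2-fold lower, AT2G21210, beside 2.79% of all genes. In crr, 2 were at least 2-fold higher, IAA31 and IAA20, beside 5.06% of all genes, and AT2G21210 was again lower, beside 3.62% of all genes. With 37 members these counts are near the shares over all genes. The median difference of the members was -0.08 in Col-0 and -0.09 in crr, against 0.02 and 0.01 over all genes. Below 0 were 24 of the 37 in Col-0 and 22 in crr, beside 9156 and 9725 of 20017 genes. Within 0.5 log2 of 0 were 26 members in Col-0 (70.3%) and 23 in crr (62.2%), against 81.2% and 78.2% of all genes. The contrasts of the 2 genotypes use separate libraries, and over the 37 members their differences had a Pearson r of 0.88 and a Spearman rho of 0.77, against 0.84 and 0.69 over all genes. The sign was shared by 29 of the 37 members and by 14960 of the 20017 genes, which are near shares. Without AT2G21210 r was 0.82, and without IAA31 as well it was 0.78. These 2 genes were left out after their values were seen.

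**Figure D2:**
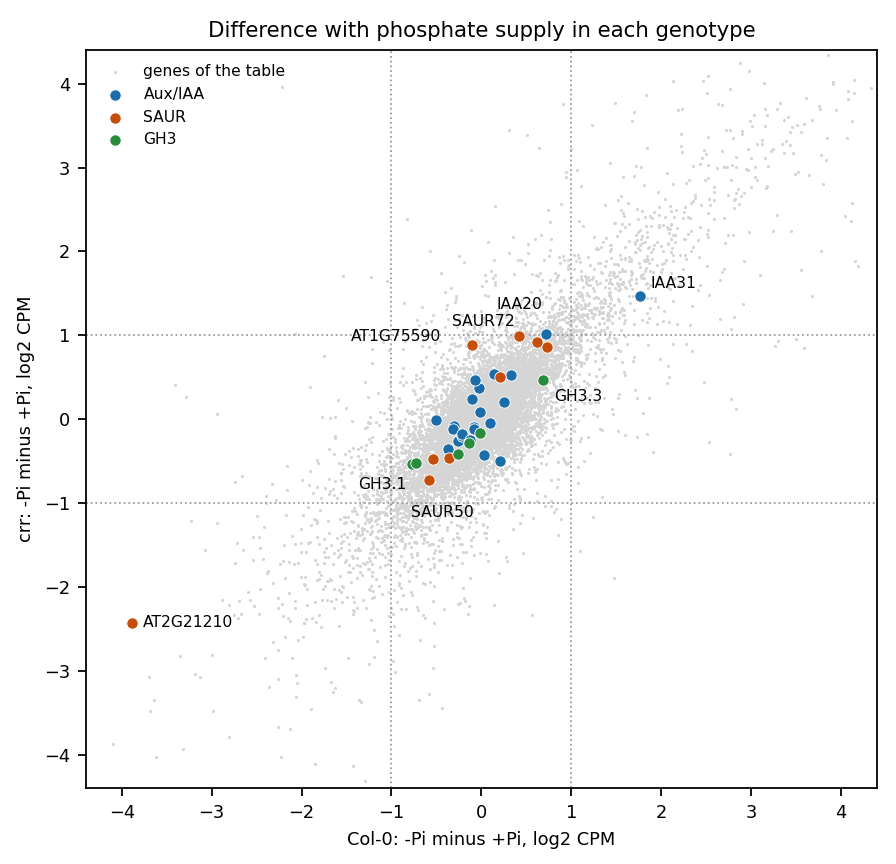
The difference without minus with phosphate in log2 CPM for Col-0 (x axis) and crr (y axis), with Aux/IAA, SAUR and GH3 genes in colour over the other genes of the table in grey; dotted lines mark 2-fold, and 81 genes beyond 4.4 on either axis are not drawn. IAA31 lies at 1.76 and 1.47 and AT2G21210 at -3.89 and -2.43. The other members lie inside the dotted lines, apart from IAA20 at 0.72 and 1.02. Some lie close to those lines, such as SAUR72 at 0.42 and 0.99.

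Among the Aux/IAA genes, IAA31 had the largest difference with phosphate supply. IAA31 (AT3G17600, chr3:6019973-6021147, minus strand) encodes an unusual Aux/IAA protein whose auxin-dependent degradation motif is incomplete. Its level was 1.30 log2 CPM in Col-0 +Pi, 3.06 in Col-0 -Pi, 1.54 in crr +Pi and 3.00 in crr -Pi. Both groups without phosphate were above both groups with it, by 1.76 in Col-0 (3.39-fold) and 1.47 in crr (2.76-fold). That difference was the 379th highest of 20017 genes in Col-0 and the 571st highest in crr. IAA20, a close relative that lacks the degradation motif, was measured at -1.07, -0.35, -1.62 and -0.60 log2 CPM in the same order of groups. Its differences of 0.72 and 1.02 had the direction of IAA31 at a level below 1 CPM in every group. IAA30, its nearest paralog, was at -0.19, 0.06, 0.47 and 0.68 and differed by 0.25 and 0.21 with phosphate supply. IAA33, another member without the motif, was at -0.06, 0.16, 0.79 and 0.29 and differed by 0.21 in Col-0 and -0.50 in crr.

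The more abundant Aux/IAA genes differed little with phosphate supply. IAA9 was at 8.92, 8.79, 8.95 and 8.69 log2 CPM in Col-0 +Pi, Col-0 -Pi, crr +Pi and crr -Pi, and IAA16 was at 7.45, 7.44, 7.40 and 7.49. IAA8 was at 6.55, 6.46, 6.53 and 6.44. IAA17, also known as AXR3, was at 6.72, 6.62, 6.59 and 6.83, so that it was 0.10 lower without phosphate in Col-0 and 0.24 higher in crr. Of all 22 Aux/IAA genes, 19 lay within 0.5 log2 of 0 in Col-0 (86.4%) and 17 in crr (77.3%). These are near the 81.2% and 78.2% of all genes. IAA14, known as SOLITARY-ROOT because its stabilized form blocks lateral root initiation, was at 3.90, 3.53, 3.90 and 3.54, which was lower without phosphate by the same margin in both genotypes, at -0.37 and -0.35. IAA11 was at 2.90, 3.23, 2.73 and 3.27 and was higher in both, by 0.33 and 0.53. The other 6 Aux/IAA genes not described singly (IAA4, IAA10, IAA12, IAA13, IAA18 and IAA26) lay between 2.59 and 5.54 log2 CPM in every group, with differences from -0.30 to 0.10 in Col-0 and from -0.26 to -0.04 in crr.

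Some Aux/IAA genes had a phosphate difference of another sign or size in the mutant. The difference of crr minus that of Col-0 lay within 0.5 log2 of 0 in 20 of the 22 (90.9%). This is near the 88.8% of all genes, and the genes below were picked for the size of this value. IAA28, a repressor that acts in lateral root founder cells, was at 6.15, 6.08, 5.95 and 6.42 log2 CPM, with phosphate differences of -0.07 in Col-0 and 0.47 in crr. IAA2 was at 5.55, 5.05, 5.36 and 5.34, and its difference of -0.50 in Col-0 was -0.01 in crr. IAA1, which is its paralog, was at 2.96, 3.10, 2.77 and 3.31, with differences of 0.14 and 0.54. IAA19, known from mutants with altered tropic bending, was at 2.79, 2.76, 2.61 and 2.98, with -0.03 and 0.37. In these 4 genes crr was the lower genotype with phosphate and the higher one without it. IAA27 went the other way, at 5.06, 5.09, 5.07 and 4.64, with crr lowest without phosphate by 0.45. All of these are under 2-fold and the spread among libraries is unknown.

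Of the 6 GH3 enzymes, none reached 2-fold in any of the 5 comparisons, in which 0.954% to 8.67% of all genes did. With 6 genes this is near those shares. Below 0 without phosphate were 5 of the 6 in each genotype, beside 9156 of 20017 genes in Col-0 and 9725 in crr. GH3.17, which conjugates auxin mainly to glutamate, was the most abundant at 7.51, 7.25, 7.44 and 7.03 log2 CPM in Col-0 +Pi, Col-0 -Pi, crr +Pi and crr -Pi. It was lower without phosphate by 0.26 in Col-0 and 0.41 in crr. GH3.1 was at 2.95, 2.18, 2.76 and 2.23, with differences of -0.77 and -0.53. GH3.3 was the exception, at 2.94, 3.63, 2.84 and 3.31, with differences of 0.69 and 0.47. GH3.1 and GH3.3 thus lay at nearly the same log2 CPM with phosphate and apart without it, in both genotypes. GH3.5, which also acts on salicylic acid, was at 5.04, 4.90, 5.17 and 4.88, and GH3.6 was at 5.24, 5.22, 5.32 and 5.17. GH3.9 had a low level, at -0.25, -0.97, 0.26 and -0.26, with differences of -0.73 and -0.52. The median of the family was -0.20 in Col-0 and -0.35 in crr.

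SAUR genes were the most divided family. AT2G21210, listed by RefSeq as SAUR6 (chr2:9084628-9086029, minus strand), was at 1.41 log2 CPM in Col-0 +Pi, -2.47 in Col-0 -Pi, 0.75 in crr +Pi and -1.69 in crr -Pi. Back-transformed, these means are 2.67, 0.18, 1.68 and 0.311 CPM. It was 14.8-fold lower without phosphate in Col-0 and 5.4-fold lower in crr, the 10th and the 65th lowest difference among 20017 genes. The folds rest on levels below 1 CPM without phosphate, and with 1 CPM added to every value the differences were -1.63 and -1.03 instead of -3.89 and -2.43. Its gene model overlaps that of AT2G21200 on the same strand over 9.39% of its 50-base windows, so reads from that stretch could belong to either gene. In the same roots the 37 green tissue genes (light-harvesting, photosystem and Rubisco small subunits) were also lower without phosphate, by a median of 0.72 in Col-0 and 1.21 in crr, with 6 (16.2%) and 24 (64.9%) of them past 2-fold lower, beside 2.79% and 3.62% of all genes. Their summed level was 376 CPM in Col-0 +Pi, 215 in Col-0 -Pi, 397 in crr +Pi and 179 in crr -Pi, and their part in the members' differences was not tested. In whole roots, fewer cells of a type and less RNA per cell cannot be told apart.

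SAUR32, studied for its part in the apical hook of seedlings, was the most abundant of the family at 5.64, 5.10, 5.58 and 5.11 log2 CPM, and was lower without phosphate by 0.54 in Col-0 and 0.47 in crr. SAUR50, known from light-induced cotyledon opening, was at 3.56, 2.98, 3.39 and 2.67, with differences of -0.58 and -0.72. SAUR36, which promotes leaf senescence, was at 3.77, 3.40, 3.83 and 3.37, with -0.36 and -0.46. The 3 most abundant SAUR genes were therefore below their +Pi level in both genotypes. SAUR41 and SAUR72, which belong to 1 subfamily, had the opposite sign. SAUR41 was at 1.07, 1.69, 0.87 and 1.79, higher without phosphate by 0.62 and 0.92, and SAUR72 was at 2.07, 2.49, 1.8 and 2.79, higher by 0.42 and 0.99. AT5G20810, at -0.01, 0.72, -0.25 and 0.60, was higher by 0.73 and 0.86. AT4G34810, at 0.75, 0.96, 0.51 and 1.02, was higher by 0.21 and 0.50. AT1G75590, listed by RefSeq as SAUR52, was at 1.88, 1.78, 1.39 and 2.27, with -0.10 in Col-0 and 0.88 in crr. In Col-0 4 of the 9 lay within 0.5 log2 of 0, and in crr 2 did, against 81.2% and 78.2% of all genes. Of the 9, only AT5G20810 was under 1 log2 CPM in every group, while AT2G21210, SAUR41 and AT4G34810 were under it in part of the groups. Of all genes reaching that level in some group, 84.1% and 81.3% lay within 0.5. Of those under it in every group, 48.9% and 42.7% did.

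Comparing crr with Col-0 on the same medium asked what loss of CRR changed at a given phosphate supply. The CRR transcript itself was at 5.99 and 5.64 log2 CPM in Col-0 with and without phosphate and at -0.38 and -0.11 in crr, 6.37 and 5.75 lower, as the genotype labels give. No member reached 2-fold with phosphate, where 0.395% of all genes were higher and 0.56% lower, and none without it, where 0.629% were higher and 1.06% lower. The median difference of the members was -0.11 with phosphate and 0.04 without it, against 0.00 and -0.01 over all genes. With phosphate 27 of the 37 were lower in crr, beside 10043 of 20017 genes. Without it 21 were higher, beside 9695 of 20017. For the SAUR genes these counts were 8 of 9 lower and 6 of 9 higher. Genes under 1 log2 CPM scattered more: of all such genes 9.3% were past 2-fold in either direction with phosphate, against 0.212% of the others, and the 5 members under that level included the largest genotype difference, that of IAA33 at 0.85.

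**Figure D3:**
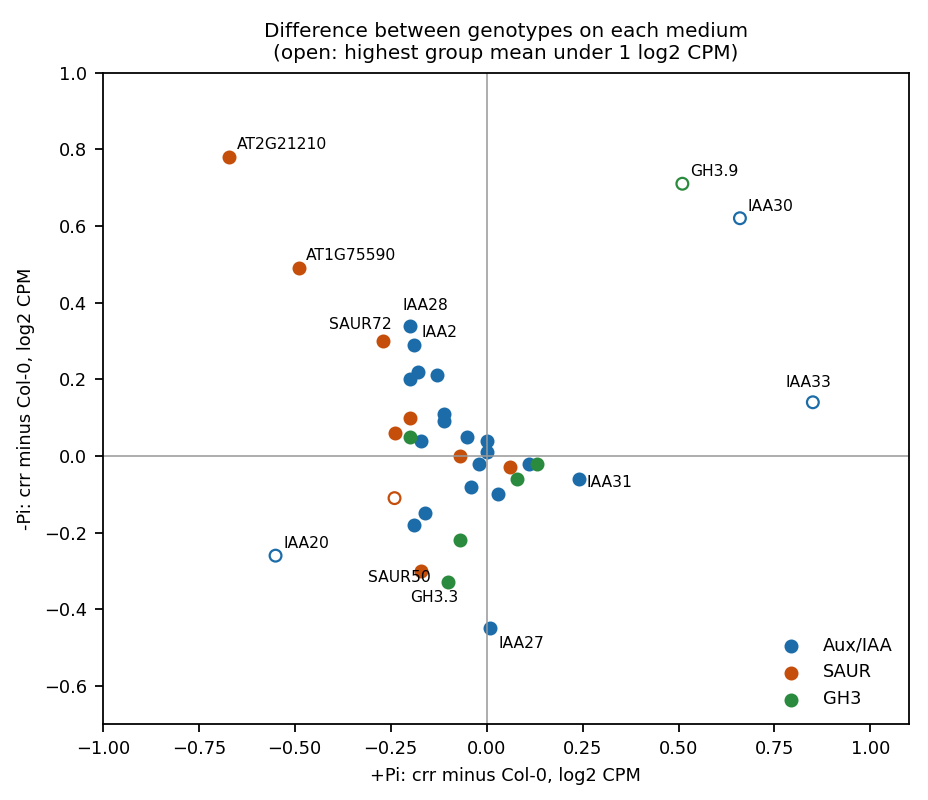
The difference crr minus Col-0 in log2 CPM with phosphate (x axis) and without it (y axis) for the 37 genes, coloured by family; open symbols are the 5 genes under 1 log2 CPM in every group. AT2G21210 lies at -0.67 and 0.78, IAA27 at 0.01 and -0.45, and no gene reaches 1 on either axis.

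The genotype differences on the 2 media use separate libraries. Over all 37 members they had a Pearson r of 0.07 and a Spearman rho of -0.19, against 0.10 and 0.01 over all genes. Of the 37, 12 kept their sign, beside 10058 of 20017 genes. Over the 30 members whose mean over the 4 groups was at least 1 log2 CPM, r was -0.52 and rho -0.58, against 0.08 and 0.01 over the 17798 genes of the table at that level. Of these 30, 23 were lower in crr with phosphate and 16 higher without it, and 7 kept their sign. Of the 17798 genes these counts were 8802, 8659 and 8943. Leaving out AT1G75590, r was -0.38 and rho -0.54. Within the 19 Aux/IAA genes at that level r was -0.47 and rho -0.57. A limit on the highest group mean, which AT2G21210 passed through Col-0 +Pi alone and AT4G34810 through crr -Pi alone, gave -0.68 and -0.63 over 32 members, and such a limit favours genes that differ between groups. The relation thus depended on which genes of low level were kept. These genes share libraries, and the limit on the mean and the gene left out were chosen after the values were seen, so the values are a description only.

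The phosphate difference of crr minus that of Col-0 gave the same contrast as 1 number per gene. It reached 2-fold in 1 member, AT2G21210 at 1.45, beside 1.47% of all genes higher and 1.51% lower, and no member was past 2-fold lower. AT1G75590 followed at 0.98, SAUR72 at 0.57, IAA28 at 0.54, IAA2 at 0.49, IAA19 and IAA1 at 0.40 each and IAA17 at 0.34. The most negative values among members at or above 1 log2 CPM were those of IAA27 at -0.46 and IAA31 at -0.30. Of the 9 SAUR genes 7 were above 0, beside 9649 of 20017 genes. Their median was 0.29, against a median of 0.07 over the members and -0.01 over all genes. The green tissue genes moved the other way, with a median of -0.51. With 1 CPM added the value of AT2G21210 was 0.60.

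Members that lie next to each other on a chromosome did not all differ alike. IAA2 and IAA7 lie 12.5 kb apart on chromosome 3, and IAA14 and IAA1 lie 10.7 kb apart on chromosome 4, as 2 copies of 1 ancestral pair. IAA7, known as AXR2, was at 5.84, 5.51, 5.72 and 5.61 log2 CPM, with phosphate differences of -0.32 and -0.12 beside -0.50 and -0.01 for IAA2. IAA14 was lower without phosphate in both genotypes while IAA1 was higher in both. SAUR50 and AT4G34810 lie 15.9 kb apart on chromosome 4, and the first was lower and the second higher without phosphate in both genotypes. Members with and without either auxin core in their promoter had medians of -0.03 (15 genes) and -0.17 (22 genes) in Col-0, and of 0.09 and -0.16 in crr.

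Upstream of these families, the receptors and co-repressors differed least. None of the 6 TIR1/AFB receptor genes and none of the 5 TOPLESS family genes reached 2-fold. With so few genes this is near the shares over all genes, 6.97% in Col-0 and 8.67% in crr for phosphate. The median size of the phosphate difference was 0.06 and 0.09 for the receptors and 0.08 and 0.11 for the co-repressors. Over all genes it was 0.17 and 0.20. TIR1 was at 6.39, 6.37, 6.31 and 6.35 log2 CPM. Of 15 measured ARF genes 1 reached 2-fold in each genotype (6.67%, beside 6.97% of all genes in Col-0 and 8.67% in crr). It was ARF11, at 2.01, 3.66, 2.08 and 3.68, which is 1.65 higher without phosphate in Col-0 and 1.60 in crr. ARF5, the activator MONOPTEROS, was at 5.09, 5.93, 5.20 and 5.75, higher by 0.84 and 0.55. ARF7 and ARF19, the activators of lateral root formation, differed by at most 0.13 in size, at -0.09 and -0.13 for ARF7 and -0.05 and -0.03 for ARF19.

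Some auxin synthesis genes were past 2-fold, part of them at low levels. Of 16 listed genes 11 were measured, of which 1 was past 2-fold higher and 2 lower without phosphate in Col-0, and 1 higher and 3 lower in crr. These are 27.3% and 36.4% of the measured genes in either direction, beside 6.97% and 8.67% of all genes. Of those past 2-fold, YUC2 and YUC7 were under 1 log2 CPM in every group. At that level 24.4% of all genes were past 2-fold in Col-0 and 30.7% in crr. TAR2, a tryptophan aminotransferase of the main pathway to auxin, was at 4.46, 3.44, 4.45 and 3.43, lower by 1.02 in each genotype. YUC2, a flavin monooxygenase of the next step, was at -0.31, -2.63, -0.44 and -2.40, with -2.32 and -1.95 at a level below 1 CPM. YUC7 was higher in both, by 1.05 in Col-0 and 0.37 in crr, at a level below 1 CPM in every group. YUC8 was also higher in both, by 0.61 in Col-0 and 1.39 in crr, at 1.8, 2.41, 1.59 and 2.98. CYP79B3, which makes an indole intermediate also used for glucosinolates, was 1.38 lower in crr, at 7.33 and 5.95, and 0.67 lower in Col-0, at 7.27 and 6.60. None of the 8 genes for auxin oxidation or for release of auxin from its conjugates reached 2-fold. With 8 genes this is near the shares over all genes.

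**Figure D4:**
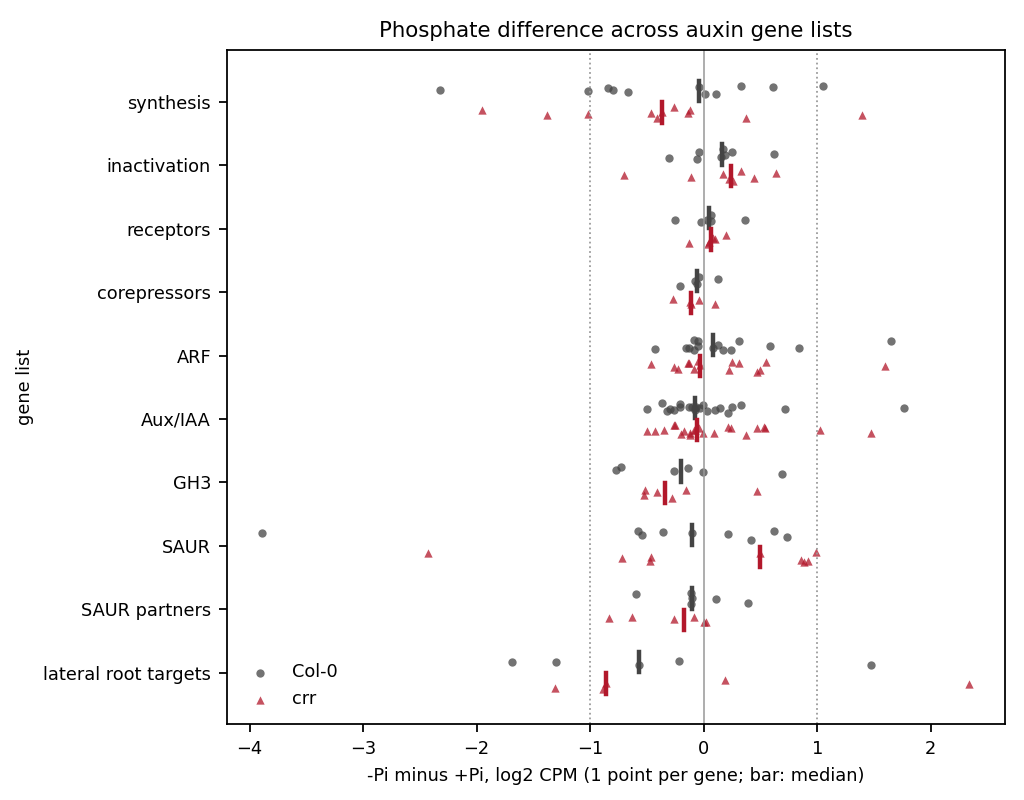
The difference without minus with phosphate in log2 CPM (x axis) for each measured gene of 10 auxin gene lists (rows), in Col-0 (grey circles) and crr (red triangles), with a bar at the median of each list; dotted lines mark 2-fold. The 6 receptor and 5 co-repressor genes lie close to 0, while SAUR, synthesis and lateral root target genes lie on both sides of 0 and reach past 2-fold.

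Downstream, 4 of the 5 lateral root targets of auxin were lower without phosphate in Col-0 and 3 in crr, beside 9156 and 9725 of 20017 genes. The medians of these 5 targets were -0.57 and -0.86, against 0.02 and 0.01 over all genes. Past 2-fold were 1 higher and 2 lower in Col-0 and 1 higher and 1 lower in crr. These are 60.0% and 40.0% of the 5, beside 6.97% and 8.67% of all genes. Of all genes under 1 log2 CPM in every group, 24.4% and 30.7% were past 2-fold. LBD29 was at 1.59, 0.29, 1.28 and -0.03 log2 CPM, lower without phosphate, with -1.30 in Col-0 and -1.31 in crr. LBD18 was at 1.22, 0.66, 1.44 and 0.58, with -0.57 and -0.86. LBD16 was at 2.46, 2.24, 2.27 and 2.47, with -0.22 and 0.19. LBD33 was higher by 1.47 and 2.34 and GATA23 lower by 1.69 and 0.89, both at under 1 log2 CPM in every group. Of the 6 measured partners of SAUR proteins, 1 reached 2-fold in any comparison, the phosphatase gene PP2C-D1. Without phosphate it was 1.26 lower in crr than in Col-0, at -1.41 and -0.14 log2 CPM. Its difference of differences was -1.22. It was below 1 CPM in every group. In these 2 comparisons 1.69% and 2.99% of all genes were past 2-fold, and 13.7% and 23.4% of those under 1 log2 CPM. AHA2, the main root proton pump gene, was at 11.67, 11.08, 11.58 and 10.95, lower by 0.60 and 0.63. The 11 root marker genes were all above 0 log2 CPM in every group, with summed levels of 722, 735, 746 and 792 CPM, to which the phosphate exporter gene PHO1 gave the most. Their phosphate differences had a median of 0.32 in Col-0 and 0.38 in crr. Above 0 were 7 and 9 of the 11, beside 10861 and 10291 of 20017 genes. In crr 1 of them was past 2-fold (9.09%, beside 8.67% of all genes). The root hair regulator RHD6 was higher by 0.83 and 1.16, the root hair gene COBL9 by 0.61 and 0.79. The meristem regulators PLT2 and PLT1 were higher by 0.72 and 0.64 and by 0.61 and 0.47. SMB was higher by 0.32 and 0.38 and SHR by 0.26 and 0.09. Other markers were not higher in both genotypes: GL2 differed by -0.40 and -0.31, PHO1 by -0.13 and -0.22, SCR by -0.06 and 0.06. CASP1 differed by -0.13 and 0.42, and WOX5 by 0.55 and 0.02. The part of the root markers in the members' differences was not tested.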

How the data were processed

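Root RNA from 12 libraries, 3 in each of 4 groups, was sequenced by the authors. Per the study's methods and processing notes, reads were trimmed with cutadapt 1.8, aligned to TAIR10 with STAR 2.5.3a and counted per gene with HTSeq 0.9.1. RSEM 1.2.31 was also listed, with no role given. A gene was kept when any library held 1 CPM of it or more, and library sizes were scaled by TMM with edgeR 3.24.3. The deposited table gives 1 mean log2 CPM for each group, made by the authors. How strand was treated in counting is not given in the sources used here. In all, 5 deposited comparison tables held the authors' fold changes, statistics and p-values and were not used. No values per library were analysed here, so no test was run, and a mean hides the spread of its libraries.

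Differences of the 4 group means were computed with Python 3.11.15, pandas 2.3.3 and NumPy 2.4.6 and drawn with matplotlib 3.10.9. Correlations were computed with SciPy 1.17.1. Counting and motif search were checked on simulated data. The 37 members have identical coordinates in the TAIR10 annotation of the table and RefSeq TAIR10.1, as do 99.5% of the 19973 genes placed in both. Levels per kb divide the back-transformed mean of the 4 log2 CPM group means by the length of the longest RefSeq transcript. Windows of 50 bases were compared between genes to find shared sequence. IAA11, IAA27, IAA9, IAA13, IAA10 and GH3.9 overlap a gene on the opposite strand, with which they could exchange reads if strand was not used.

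Members and lists were chosen with earlier results of these data known. Named were the 10 members with the largest difference in each of 5 contrasts and the 5 with the highest mean in each family, among those reaching 1 log2 CPM, all GH3 genes, and other listed auxin genes past 2-fold. Members named beside these (IAA7, IAA20, IAA30, IAA33, AT5G20810) and the non-member genes under 2-fold (TIR1, ARF5, ARF7, ARF19, LBD16, LBD18, AHA2) and root markers were added after their values were seen. Alternatives were fold limits of 1.5 and 3, members reaching 1 log2 CPM only, a pseudocount of 1 CPM, recentring on all genes, and narrower or wider membership.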

Additional observations from a re-analysis of the deposited data

How the results depend on the processing

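The members' median differences moved by less than 0.1 log2 under every alternative, and none changed sign. The medians were themselves about 0.1 or smaller in size, so this limit says little about them. With members found by name only, the median of the difference of differences fell from 0.07 to 0.01. That between genotypes without phosphate fell from 0.04 to 0.01. The counts of members past 2-fold are small and moved with the limit and the membership. With a 1.5-fold limit they were 8 instead of 2 for phosphate in Col-0, 8 instead of 3 in crr, 3 instead of 0 between genotypes with phosphate, 3 instead of 0 without it and 3 instead of 1 for the difference of differences. With a 3-fold limit the count was 1 for phosphate in crr and 0 for the difference of differences. Taking the 33 members found by name only, which leaves out AT2G21210, the counts were 1 for phosphate in Col-0 and 0 for the difference of differences. Adding Aux/IAA and GH3 genes under other names and genes described as auxin-responsive, 49 genes in all, they were 4 for phosphate in Col-0, 5 in crr, 1 between genotypes on each medium and 3 for the difference of differences. That search took in NPH4, an ARF gene, and missed SAUR9. With SAUR9 in its place, chosen after seeing the data, the counts were 5, 6, 2 with phosphate, 1 without it and 3. With a pseudocount of 1 CPM the count was 0 for the difference of differences, and IAA20 differed by 0.27 in Col-0 and 0.32 in crr, IAA31 by 1.43 and 1.21. No paired analysis was possible because the values analysed are group means, in which the replicate numbers of the labels are not kept. Leaving out single replicates could not be done for the same reason. Genes under 1 log2 CPM scattered most, and their folds are the least certain.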

Other observations

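Relatives that the table names otherwise were looked up by gene identifier after the members were set. SHY2, the Aux/IAA repressor IAA3 that acts with cytokinin at the border of the root meristem, was at 3.98 log2 CPM in Col-0 +Pi, 3.09 in Col-0 -Pi, 3.88 in crr +Pi and 3.04 in crr -Pi. It was 0.89 lower without phosphate in Col-0 and 0.83 lower in crr. YDK1, the auxin-conjugating enzyme GH3.2, was at 4.16, 3.29, 4.13 and 3.12 in the same order, lower by 0.87 and 1.01. YDK1 shared 0.338% of the 50-base windows of GH3.3, whose differences had the opposite sign.

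Of the GH3 relatives without a GH3 name, JAR1, which conjugates jasmonate to isoleucine, was at 6.74, 6.56, 6.73 and 6.51. AT5G51470 was at 2.64, 3.60, 3.41 and 3.89, higher without phosphate by 0.96 and 0.48 and higher in crr with phosphate by 0.77. AT1G23160 was higher without phosphate by 0.74 and 0.26 and higher in crr with phosphate by 0.71. AT1G48660 was at -1.75, 0.57, -2.81 and -1.69, higher without phosphate by 2.32 and 1.12 with a difference of -2.26 between crr and Col-0 without phosphate, at a level below 1 log2 CPM in every group. PBS3, a GH3 enzyme of salicylic acid synthesis, was at -0.12, -1.21, -0.52 and -0.44, with phosphate differences of -1.08 in Col-0 and 0.07 in crr and a difference of differences of 1.16, below 1 CPM in every group. AT4G36110, described as SAUR9, was at -3.38, -0.68, -2.00 and -0.20, higher without phosphate by 2.70 in Col-0 and 1.8 in crr and higher in crr with phosphate by 1.38, also below 1 CPM in every group. The remaining relatives had smaller phosphate differences in Col-0 and crr. They were 0.04 and -0.02 for DFL2, 0.0 and 0.24 for AT1G48670, and 0.31 and 0.06 for AT5G13360. AT4G22620, listed by RefSeq as SAUR34, differed by -0.31 and -0.65, below 1 CPM in every group.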
